A study of Mus musculus with 15 samples.

Results

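Genes of the phosphatidylserine recognition system were followed in RNA sequencing of blood monocytes and of 3 subsets of small intestinal macrophages. The set held 9 of the 19456 genes in the deposited counts. The receptors were Timd4, Mertk, Axl, Tyro3 and Stab1, and the bridging proteins were Gas6, Pros1, Mfge8 and Edil3. They were found by matching their symbols to the Ensembl identifiers of the counts, and all 9 had a row and passed the filter on low counts, which left 15802 genes.

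Cells came from adult male wild-type C57BL/6 mice and carried no transgene, treatment or deletion. The groups were 3 libraries of Ly6Chi monocytes sorted from peripheral blood, and gut macrophages sorted into Tim-4-CD4- (4 libraries), Tim-4-CD4+ (4 libraries) and, carrying both proteins, Tim-4+CD4+ (4 libraries). Every library was a pool of 3 mice, or of 4 mice for monocyte replicate 2, so none stands for a single animal. The blood and gut cells differ in tissue, digestion and gate as well as in cell type, and these cannot be told apart in any comparison with monocytes.

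Dying cells move phosphatidylserine from the inner to the outer face of their membrane, where it serves as a signal for engulfment. Tim-4, the product of Timd4, binds the lipid directly and tethers the dying cell, but has no signaling domain of its own. Mertk, Axl and Tyro3, together the TAM receptor tyrosine kinases, reach the lipid through Gas6 and protein S (Pros1), vitamin K-dependent proteins whose gamma-carboxylated domain holds the membrane. Mfge8 and Edil3 bind the lipid with their discoidin-like domains and phagocyte integrins with an Arg-Gly-Asp (RGD) motif, and stabilin-1 (Stab1) is a scavenger receptor that also takes up cells through the lipid. Intestinal macrophages lie under an epithelium that constantly sheds and replaces its cells and are known for silent clearance of them.

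On GRCm38 with GENCODE M21, the receptor genes lie as follows. Timd4 (ENSMUSG00000055546.6) spans chr11:46810800-46844332, Mertk (ENSMUSG00000014361.5) chr2:128698956-128802894 and Tyro3 (ENSMUSG00000027298.17) chr2:119797733-119818104, all on the plus strand. Axl (ENSMUSG00000002602.16) spans chr7:25757273-25788705 and Stab1 (ENSMUSG00000042286.13) chr14:31139013-31168641 on the minus strand. Of the bridging proteins, Gas6 (ENSMUSG00000031451.6) spans chr8:13465374-13494490 and Mfge8 (ENSMUSG00000030605.15) chr7:79133768-79149060 on the minus strand. Pros1 (ENSMUSG00000022912.8) spans chr16:62854307-62929346 and Edil3 (ENSMUSG00000034488.14) chr13:88821472-89323223 on the plus strand.

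Timd4, Mfge8 and Edil3 were the members that passed the test as higher in Tim-4+CD4+ macrophages against both other subsets, and each holds codons for RGD in its reading frame. The stretches around these codons are shown because the motif is the part of Mfge8 and Edil3 known to engage integrins. The codons are in capitals, read 5′ to 3′ on the coding strand of GRCm38 with the exons of GENCODE M21. The stretch of Timd4 lies at chr11:46815670-46815702 on the plus strand in exon 2, that of Mfge8 at chr7:79145296-79145328 on the minus strand in exon 3, and that of Edil3 at chr13:89042479-89042511 on the plus strand in exon 4.
Timd4: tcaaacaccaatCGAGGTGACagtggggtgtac
Mfge8: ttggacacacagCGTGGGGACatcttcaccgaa
Edil3: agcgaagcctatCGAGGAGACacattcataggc
The first codon of the triplet is codon 104 of 343 in Timd4, codon 87 of 463 in Mfge8 and codon 96 of 480 in Edil3. The triplet was not particular to these genes, since Axl held 1 and Stab1 held 2 in frame. In Mertk, Tyro3, Gas6 and Pros1, these letters were not found in frame.

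Promoter sequence is shown for Timd4 and Mfge8, which were higher together in Tim-4+CD4+ macrophages. RefSeq windows on GRCm38.p6 were matched for 8 of the 9 genes, and the missing entry was Edil3. The windows hold the 250 bases before the start, at chr11:46810549-46810798 on the plus strand for Timd4 and at chr7:79149061-79149310 on the minus strand for Mfge8, with motif matches in capitals.
Timd4: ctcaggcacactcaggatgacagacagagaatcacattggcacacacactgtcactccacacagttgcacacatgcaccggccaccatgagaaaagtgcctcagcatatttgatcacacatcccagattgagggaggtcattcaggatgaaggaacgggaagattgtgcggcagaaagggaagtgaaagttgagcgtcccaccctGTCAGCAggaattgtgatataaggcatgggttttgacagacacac
Mfge8: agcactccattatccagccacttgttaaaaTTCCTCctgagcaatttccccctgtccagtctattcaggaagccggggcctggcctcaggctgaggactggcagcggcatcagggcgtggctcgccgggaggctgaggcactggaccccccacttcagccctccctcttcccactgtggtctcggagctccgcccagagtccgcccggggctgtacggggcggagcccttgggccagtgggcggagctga
Motifs were searched on both strands. The MAF recognition motif TGCTGAC had 1 match in the window of Timd4 and is held by 3.81% of all 32851 windows of this length. The PU.1 core GAGGAA had 1 match each in Mfge8, Axl and Stab1 and is held by 23.3% of windows. The TATA box TATAAA, held by 12.4% of windows, had no match in the 8 members. These matches describe letters and not binding.

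Timd4 encodes one of the proteins used to sort the subsets, so its difference between them checks the labels. Levels are given in CPM, which are counts scaled to a common library size, with edgeR's TMM correction for library composition, at depths of 39388763 to 151510641 counts per library. Timd4 was 390, 336, 359 and 337 in Tim-4+CD4+ replicates 1 to 4. It was 0.566, 0.151, 2.93 and 0.802 in the Tim-4-CD4- libraries and 4.47, 1.29, 0.511 and 0.547 in the Tim-4-CD4+ libraries. The labels held in all 12 macrophage libraries, and the 8 Tim-4- libraries carried from 0.0424% to 1.26% of the Tim-4+CD4+ mean. Monocytes had between 1 and 10 reads per library. The summed level of Adgre1, Fcgr1, Csf1r, Cx3cr1 and H2-Ab1 was 19335 to 24585 CPM in macrophages and 3373 to 3694 in monocytes, and Ly6c2 was 820 to 1545 CPM in monocytes and at most 3.46 in macrophages. Cd4 was 14.5 to 39.2 CPM in Tim-4-CD4- libraries, 484 to 598 in Tim-4-CD4+ and 752 to 924 in Tim-4+CD4+.

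**Figure D1:**
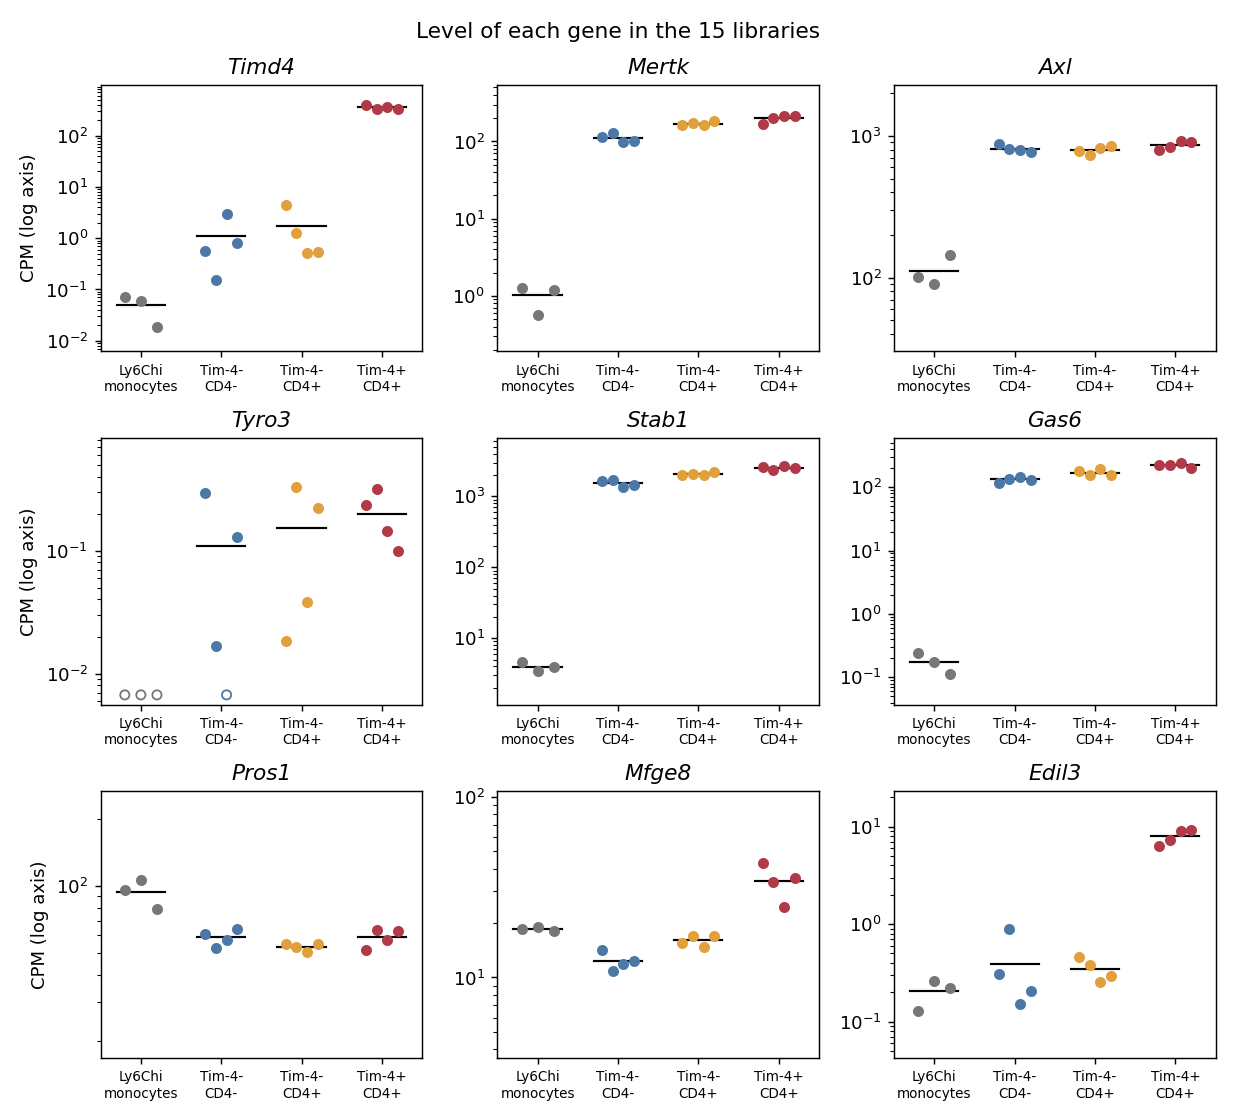
Level of the 9 genes in each of the 15 libraries, in CPM on log axes that differ between panels. Points are libraries, lines are group means, and open circles mark libraries with 0 counts. Timd4 and Edil3 stand apart in the 4 Tim-4+CD4+ libraries, and Mertk, Axl, Stab1 and Gas6 are higher in all 12 macrophage libraries than in monocytes.

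The first question was how macrophages of the gut differ from circulating Ly6Chi monocytes. Differences were tested with edgeR's quasi-likelihood test, and a gene passed where its Benjamini-Hochberg adjusted p was under 0.05. Against monocytes, 8 of the 9 genes passed in Tim-4-CD4- macrophages, with 6 higher and 2 lower. The background was high: 65.4% of all genes tested passed, 37.3% higher and 28.1% lower. In Tim-4-CD4+ macrophages 7 passed, 6 higher and 1 lower, beside 69.8% of all genes, 39.1% higher and 30.7% lower. In Tim-4+CD4+ macrophages all 9 passed, 8 higher and 1 lower, beside 70.9% of all genes, 39.5% higher and 31.3% lower. The median log2 fold change of the 9 genes was 4.21, 4.77 and 6.98 in the same order, and that of all genes was 0.08, 0.11 and 0.10. Libraries of the 2 populations did not overlap for 7, 8 and 9 of the 9 genes, beside 67.6%, 70.1% and 68.7% of all genes.

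Among receptors, Mertk and Stab1 were low in monocytes and abundant in all macrophages. Mertk, the TAM receptor most tied to engulfment in macrophages, was 1.28, 0.574 and 1.21 CPM in the 3 monocyte libraries. Its log2 fold change over monocytes was 6.77 ± 0.24 (SE) in Tim-4-CD4- macrophages, then 7.39 ± 0.24 in the Tim-4-CD4+ subset and 7.61 ± 0.24 in Tim-4+CD4+ macrophages (adjusted p at most 2.25e-13, edgeR). Stab1 was 4.58, 3.47 and 3.90 CPM in monocytes, and its log2 fold changes were 8.58 ± 0.15, 9.03 ± 0.15 and 9.31 ± 0.16 (adjusted p at most 1.70e-16, edgeR). For both genes, the lowest macrophage library was far above the highest monocyte library.

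Axl, the TAM receptor known for induction by inflammatory cytokines, was already present in monocytes, at 100.4, 90.4 and 146 CPM. Its log2 fold change over monocytes was 2.86 ± 0.14, 2.83 ± 0.14 and 2.94 ± 0.14 in the 3 subsets (adjusted p at most 2.21e-11, edgeR). On a linear scale the fitted fold was 7.13 to 7.68 for Axl and 109 to 196 for Mertk.
Tyro3 had no reads in the 3 monocyte libraries and between 0 and 37 per library in macrophages. Against a floor of 3 counts per library it was at least 3.10-fold higher in Tim-4-CD4- macrophages, 4.30-fold in the Tim-4-CD4+ subset and 5.63-fold in the Tim-4+CD4+ subset. Its test passed in the 3 comparisons (adjusted p 0.00973, 0.00512 and 0.00292, edgeR), but a Tim-4-CD4- library also had 0 reads, and floors cover counting error only. Without Tim-4-CD4- replicate 1 the first bound was 1.38-fold, and without Tim-4-CD4+ replicate 2 the second was 2.63-fold, a step chosen after seeing the data.

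Timd4 passed against monocytes in the Tim-4- subsets as well, at 0.0424% to 1.26% of the Tim-4+CD4+ mean. Low expression cannot be told apart here from a few Tim-4+ cells carried over in the sort, which was not tested. The log2 fold change of Timd4 was 4.21 ± 1.18 in Tim-4-CD4- macrophages (adjusted p = 0.00501, edgeR) and 4.77 ± 1.11 in Tim-4-CD4+ macrophages (adjusted p = 0.00113). These values leaned on single libraries: without Tim-4-CD4- replicate 3 the first was 3.05, and without Tim-4-CD4+ replicate 1 the second was 3.61. In Tim-4+CD4+ macrophages it was 12.58 ± 1.07 (adjusted p = 1.89e-08).

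The TAM ligands moved in opposite directions. Gas6, the ligand of all TAM receptors, had 34, 18 and 6 reads in monocytes, or 0.111 to 0.241 CPM. Its log2 fold change over monocytes was 9.43 ± 0.19 in Tim-4-CD4- macrophages, then 9.79 ± 0.20 in the Tim-4-CD4+ subset and 10.17 ± 0.20 in Tim-4+CD4+ macrophages (adjusted p at most 6.66e-16, edgeR). Pros1, which binds Mertk and Tyro3 and also serves as an anticoagulant in plasma, was 96.0, 107 and 78.6 CPM in monocytes and 50.6 to 64.1 CPM in the 12 macrophage libraries. It was lower in each subset, with log2 fold changes of -0.68 ± 0.11, -0.81 ± 0.11 and -0.68 ± 0.11 (adjusted p at most 3.54e-05, edgeR), and no macrophage library reached the lowest monocyte library.

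Mfge8 was 18.6, 19.1 and 18.0 CPM in monocytes. It was lower in Tim-4-CD4- macrophages, with a log2 fold change of -0.59 ± 0.14 (adjusted p = 0.00186, edgeR), and higher in Tim-4+CD4+ macrophages, at 0.88 ± 0.15 (adjusted p = 5.02e-05). In Tim-4-CD4+ macrophages the difference of -0.21 did not pass (95% confidence interval -0.52 to 0.09, adjusted p = 0.199). Edil3, best known from endothelium, had 12 to 27 reads in monocytes and passed in Tim-4+CD4+ macrophages with a log2 fold change of 5.30 ± 0.52 (adjusted p = 1.00e-07, edgeR). In Tim-4-CD4- macrophages its log2 fold change was 0.99 (95% confidence interval -0.02 to 2.01, adjusted p = 0.0788), or 0.19 without Tim-4-CD4- replicate 2 (adjusted p = 0.681), and in Tim-4-CD4+ macrophages 0.75 (-0.26 to 1.76, adjusted p = 0.169).

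RNA of other gut cells moved with tissue of origin. The 4 plasma cell markers Jchain, Mzb1, Derl3 and Tnfrsf17 summed to 198 to 391 CPM in macrophage libraries and 0.130 to 0.302 in monocytes. The 6 mesenchymal markers Col1a1, Col1a2, Col3a1, Dcn, Pdgfra and Pdgfrb summed to 60.5 to 141 CPM in macrophages and 1.41 to 2.20 in monocytes. The 6 epithelial markers summed to 8.03 to 21.6 CPM in macrophages and at most 0.136 in monocytes, where 2 of them were at 0. Their part in the differences of Gas6, Mertk, Stab1 and Tyro3 from monocytes was not tested.

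The second question was whether the 3 macrophage subsets differ among themselves. In Tim-4+CD4+ compared with Tim-4-CD4- macrophages, 6 of the 9 genes passed, all 6 of them higher in Tim-4+CD4+. Of all genes tested, 23.1% passed, 11.3% higher and 11.9% lower. The 6 were Timd4, Mertk, Stab1, Gas6, Mfge8 and Edil3, and the median log2 fold change of the 9 genes was 0.84, beside -0.0047 for all genes. In Tim-4-CD4+ compared with Tim-4-CD4- macrophages, 3 of the 9 passed (Mertk, Stab1 and Gas6), all higher in Tim-4-CD4+, beside 10.1% of all genes, 4.52% higher and 5.53% lower. In Tim-4+CD4+ compared with Tim-4-CD4+ macrophages, 3 of the 9 passed (Timd4, Mfge8 and Edil3), all higher in Tim-4+CD4+, beside 3.41% of all genes, 2.07% higher and 1.34% lower. In the order given, libraries of the 2 subsets did not overlap for 6, 4 and 5 of the 9 genes, beside 26.4%, 19.1% and 9.63% of all genes. These comparisons share libraries pairwise and are not independent of each other. Timd4 is included in the counts and medians of both comparisons with Tim-4+CD4+, although the sort on Tim-4 fixed its direction in advance. The members were chosen with earlier results of these data known, and the paper already names Edil3 among transcripts of Tim-4+ cells. The counts of members that passed are therefore not independent of these data. In pools of sorted cells, fewer cells that express a gene cannot be told apart from less RNA per cell.

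**Figure D2:**
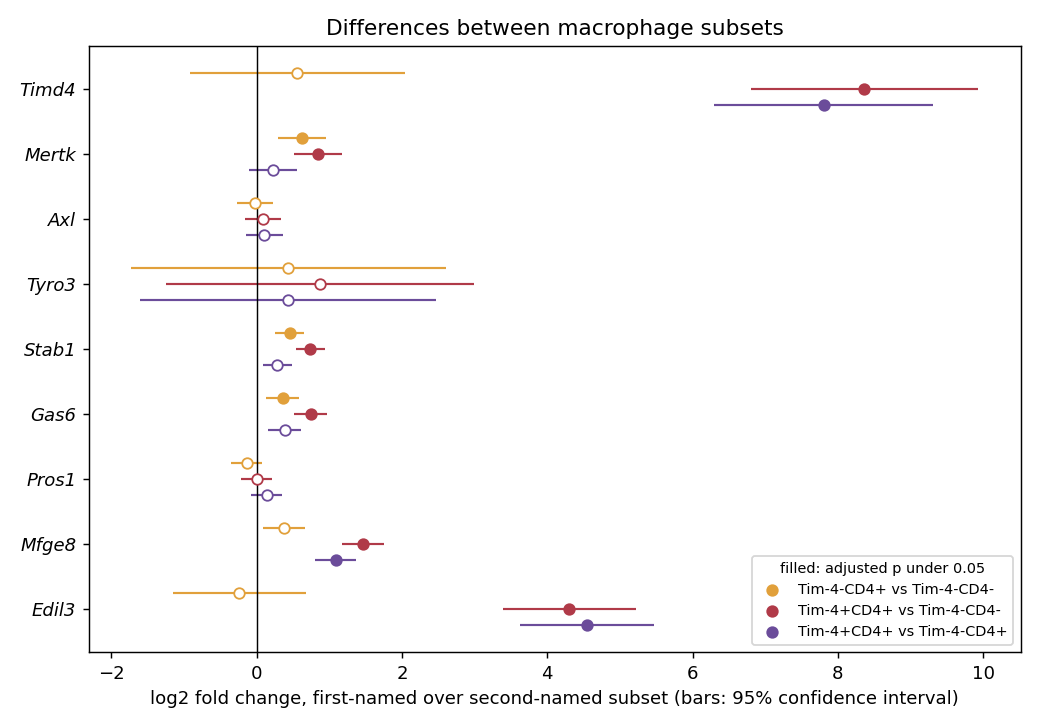
Log2 fold change of each gene in the 3 comparisons between macrophage subsets, with 95% confidence intervals derived from the F statistic of the test. Filled points passed the test. Timd4 and Edil3 lie beyond 4 in both comparisons that involve Tim-4+CD4+ macrophages, Mfge8 lies between 1 and 2, Mertk, Stab1 and Gas6 stay under 1, and Axl and Pros1 lie near 0.

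Mertk was 116, 128, 98.8 and 101 CPM in the Tim-4-CD4- libraries. It was 161, 171, 164 and 185 in the Tim-4-CD4+ libraries and 167, 201, 216 and 212 in the Tim-4+CD4+ libraries. All 8 CD4+ libraries lay above all 4 Tim-4-CD4- libraries, whereas the CD4+ subsets overlapped. Compared with Tim-4-CD4-, Mertk was higher by 0.62 ± 0.15 on the log2 scale in Tim-4-CD4+ (adjusted p = 0.0160, edgeR), and by 0.84 ± 0.16 in Tim-4+CD4+ macrophages (adjusted p = 0.000761). Between the CD4+ subsets the difference of 0.22 did not pass (95% confidence interval -0.10 to 0.55, adjusted p = 0.532).

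Stab1 was the most abundant member in CPM in each macrophage subset. It was 1631, 1693, 1340 and 1434 CPM in the Tim-4-CD4- libraries. It was 2011, 2098, 2016 and 2217 in the Tim-4-CD4+ libraries and 2608, 2387, 2655 and 2503 in the Tim-4+CD4+ libraries. The 3 groups formed steps with no overlap. Stab1 shares exon positions with Nt5dc2 on the opposite strand, whose mean was 18.6, 10.4 and 7.77 CPM in the same order. Compared with Tim-4-CD4-, Stab1 was higher by 0.45 ± 0.09 in Tim-4-CD4+ (adjusted p = 0.00471, edgeR) and by 0.74 ± 0.09 in Tim-4+CD4+ macrophages (adjusted p = 2.52e-05). The step between the CD4+ subsets, 0.28 (95% confidence interval 0.08 to 0.48), did not pass after adjustment (adjusted p = 0.138). Libraries without overlap were also found for 19.1%, 26.4% and 9.63% of all genes in these 3 comparisons.

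Gas6 was 118, 137, 147 and 128 CPM in the Tim-4-CD4- libraries. It was 178, 157, 191 and 153 in the Tim-4-CD4+ libraries and 226, 221, 238 and 202 in the Tim-4+CD4+ libraries. Here too the subsets formed steps with no overlap, in the same order as Stab1 and beside the same shares of all genes. Gas6 was higher in Tim-4+CD4+ than in Tim-4-CD4- macrophages by 0.74 ± 0.11 on the log2 scale (adjusted p = 8.89e-05, edgeR). The difference of Tim-4-CD4+ from Tim-4-CD4- was 0.36 ± 0.11 and lay close to the threshold (adjusted p = 0.0450). With the replicate number as a block it did not pass (adjusted p 0.0666 by the numbers in the titles and 0.0544 by those in the descriptions, edgeR). The difference of Tim-4+CD4+ from Tim-4-CD4+ was 0.38 ± 0.11 (adjusted p = 0.0653).

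Markers of other cells also differed between the subsets, though not all in steps. Ccr2, the chemokine receptor of Ly6Chi monocytes, was 510 to 759 CPM in the Tim-4-CD4- libraries, 65.2 to 113 in the Tim-4-CD4+ libraries and 4.84 to 15.8 in the Tim-4+CD4+ libraries. The 5 dendritic cell markers Flt3, Zbtb46, Xcr1, Clec9a and Ccr7 summed to a mean of 50.1 CPM in Tim-4-CD4- macrophages, 32.8 in the Tim-4-CD4+ subset and 34.2 in the Tim-4+CD4+ subset, with 1 and 2 of them lower in the CD4+ subsets. Of the 6 epithelial markers, 3 were higher in each CD4+ subset than in Tim-4-CD4- macrophages. Between the CD4+ subsets, no dendritic cell or epithelial marker passed. The part of these cells in the levels of Mertk, Stab1 and Gas6 was not tested.

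Calls in the comparison of Tim-4-CD4+ with Tim-4-CD4- macrophages depended on single libraries. Mertk lost its call without Tim-4-CD4- replicate 3 or 4 or Tim-4-CD4+ replicate 4 (adjusted p 0.0571, 0.0517 and 0.0524, edgeR). Gas6 lost it without any 1 of the 8 libraries other than Tim-4-CD4- replicate 3 (adjusted p 0.0489 without that library, up to 0.140 without the others). Stab1 kept its call in all 8 leave-outs (adjusted p 0.00460 to 0.0230). In the comparison of Tim-4+CD4+ with Tim-4-CD4- macrophages, Mertk, Stab1, Gas6 and Mfge8 stayed past the threshold in all 8 leave-outs.

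**Figure D3:**
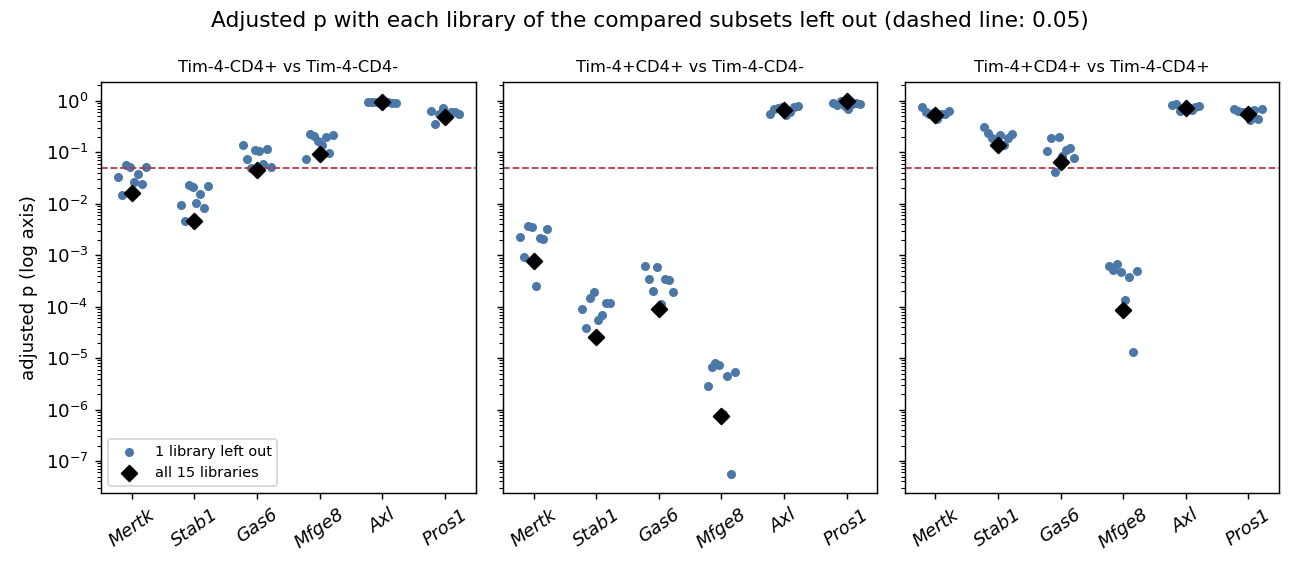
Adjusted p, on a log axis, of 6 genes in the 3 comparisons between macrophage subsets, with all 15 libraries (diamonds) and with each library of the compared subsets left out (circles). In the comparison of Tim-4-CD4+ with Tim-4-CD4-, Mertk and Gas6 cross the dashed line at 0.05 and Stab1 stays below it. In Tim-4+CD4+ against Tim-4-CD4- Mertk, Stab1, Gas6 and Mfge8 stay below it, and Axl and Pros1 lie above it in all panels.

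Axl and Pros1 did not pass in any comparison between macrophage subsets, and their libraries overlapped. Axl was 773 to 872 CPM in Tim-4-CD4-, 737 to 851 in Tim-4-CD4+ and 795 to 914 in Tim-4+CD4+ libraries. Its log2 difference of Tim-4+CD4+ from Tim-4-CD4- macrophages was 0.08 (95% confidence interval -0.17 to 0.33, adjusted p = 0.668, edgeR). Pros1 was 52.4 to 64.1, 50.6 to 55.1 and 51.5 to 63.6 CPM in the same order, and its log2 difference of Tim-4+CD4+ from Tim-4-CD4- macrophages was 0.00 (95% confidence interval -0.21 to 0.21, adjusted p = 0.994). Tyro3, with at most 37 reads in a library, gave intervals too wide to place the subsets, as in Tim-4+CD4+ against Tim-4-CD4- (0.87, 95% confidence interval -1.24 to 2.99).

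Mfge8 was 14.3, 10.8, 11.9 and 12.3 CPM in the Tim-4-CD4- libraries. It was 15.5, 16.9, 14.8 and 17.0 in the Tim-4-CD4+ libraries and 42.8, 33.7, 24.5 and 35.4 in the Tim-4+CD4+ libraries. The Tim-4+CD4+ libraries lay above all others but spread more among themselves. Mfge8 was higher in Tim-4+CD4+ macrophages by 1.47 ± 0.14 on the log2 scale over Tim-4-CD4- (adjusted p = 7.49e-07, edgeR) and by 1.09 ± 0.13 over Tim-4-CD4+ (adjusted p = 8.57e-05). Tim-4-CD4+ exceeded Tim-4-CD4- by 0.38 with no overlap, which did not pass after adjustment (95% confidence interval 0.09 to 0.67, adjusted p = 0.0933). Of all genes, 19.1% had no overlap in that comparison.

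Edil3 was present at 6.28, 7.32, 9.02 and 9.24 CPM in the Tim-4+CD4+ libraries, from 557 to 850 reads each. It was 0.310, 0.888, 0.151 and 0.207 in the Tim-4-CD4- libraries and 0.458, 0.379, 0.256 and 0.290 in the Tim-4-CD4+ libraries. The lowest Tim-4+CD4+ library thus exceeded the highest Tim-4- library. Its log2 fold change was 4.31 ± 0.43 over Tim-4-CD4- (adjusted p = 1.72e-06, edgeR), which became 5.14 without Tim-4-CD4- replicate 2, and 4.55 ± 0.44 over Tim-4-CD4+ macrophages (adjusted p = 8.72e-06). Between the Tim-4- subsets the difference of -0.24 did not pass (95% confidence interval -1.16 to 0.67, adjusted p = 0.815).

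For Timd4 the fold change was 8.37 ± 0.74 over Tim-4-CD4- (adjusted p = 4.26e-07, edgeR), or 9.55 without Tim-4-CD4- replicate 3. Over Tim-4-CD4+ it was 7.81 ± 0.71 (adjusted p = 5.53e-06), or 8.99 without Tim-4-CD4+ replicate 1. Edil3 in the Tim-4- libraries was 1.90% to 11.2% of its Tim-4+CD4+ mean, above the share of Timd4 in each of them.

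Mfge8 and Edil3 are also made by stromal and endothelial cells, and some markers of such cells were higher in Tim-4+CD4+ libraries. The 6 mesenchymal markers summed to 66.7, 60.5, 92.1 and 88.6 CPM in the Tim-4-CD4- libraries, 74.1, 95.7, 78.2 and 75.0 in the Tim-4-CD4+ libraries and 141, 117, 101 and 130 in the Tim-4+CD4+ libraries. The mean of the sum was 1.59 times as high in Tim-4+CD4+ as in Tim-4-CD4- libraries, while the mean of Mfge8 was 2.76 times and that of Edil3 20.5 times as high. Over Tim-4-CD4+ libraries the same ratios were 1.51 for the sum, 2.13 for Mfge8 and 23.0 for Edil3. In Tim-4+CD4+ against Tim-4-CD4-, 4 of the 6 mesenchymal genes passed as higher, and against Tim-4-CD4+ 1 of the 6 did. Among the 4 Tim-4+CD4+ libraries, Mfge8 and the sum had the same order, highest in replicate 1 and lowest in replicate 3, and Edil3 was lowest in replicate 1. Neither in the Tim-4-CD4- nor in the Tim-4-CD4+ libraries did the order of Mfge8 follow the sum. The 5 enteric neuron and glia markers summed to 0.971 to 1.94 CPM in the Tim-4- libraries and 5.34 to 7.21 in Tim-4+CD4+, most of it from Elavl4. The 4 lymphatic endothelial markers summed to 1.83 to 4.09 CPM and 5.42 to 8.08, and the 5 blood endothelial markers to 4.63 to 21.8 and 9.41 to 16.3. The mean lymphatic sum in Tim-4+CD4+ libraries was 2.64 times that of Tim-4-CD4- and 2.10 times that of Tim-4-CD4+ libraries, near the ratios of Mfge8. In the same order, the ratios were 3.64 and 4.17 for neurons and glia and 1.05 and 1.76 for blood endothelium. No marker on these lists was at 0 in all libraries of a macrophage subset, and their part in the levels of Mfge8 and Edil3 was not tested.

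**Figure D4:**
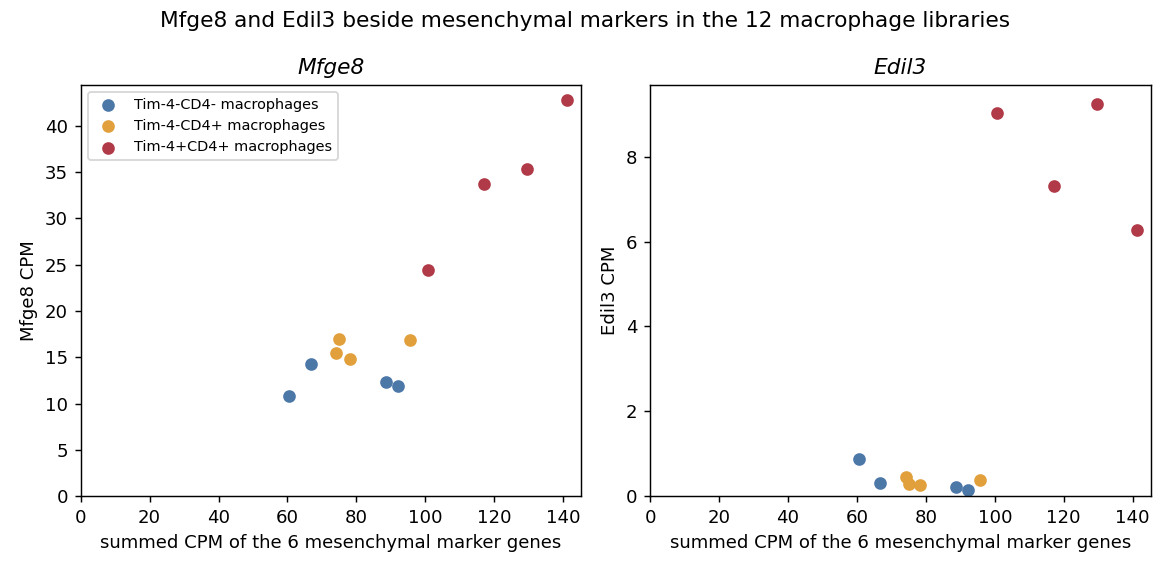
CPM of Mfge8 (left) and Edil3 (right) against the summed CPM of 6 mesenchymal markers in the 12 macrophage libraries, 1 point per library. The 4 Tim-4+CD4+ libraries lie at 101 to 141 on the marker axis, to the right of the other 8, and within them Mfge8 follows the marker sum and Edil3 does not. Within each of the other subsets Mfge8 does not follow the sum.

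Per kilobase of exon, which allows levels of different genes to be set side by side, Stab1 and Axl led in all macrophage subsets, joined by Timd4 in the Tim-4+CD4+ subset, where levels in CPM per kilobase were 247 ± 11.6 (SD, n = 4) for Stab1, 171 ± 11.0 for Axl, 164 ± 11.6 for Timd4, 87.0 ± 5.83 for Gas6, 45.8 ± 5.08 for Mertk, 14.4 ± 1.39 for Pros1, 7.26 ± 1.61 for Mfge8, 0.582 ± 0.103 for Edil3 and 0.0321 ± 0.0157 for Tyro3. Axl and Timd4 overlapped there by this length, but not per kilobase of the longest transcript, where Axl was 186 to 214 and Timd4 155 to 179. In Tim-4-CD4- macrophages Axl, at 161 ± 8.40, and Stab1, at 148 ± 16.1, overlapped too. In monocytes Pros1, at 23.0 ± 3.51, and Axl, at 22.3 ± 5.84 (n = 3), led and overlapped, and the order below them was Mfge8, Stab1, Mertk, Gas6, Timd4, Edil3 and Tyro3. Timd4 and Edil3 overlapped in monocytes, and their order turned with the longest transcript as length (0.0227 for Timd4 and 0.0384 for Edil3).

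The make-up of the TAM receptors and their ligands differed between populations. Of the summed per-kilobase level of Tyro3, Axl and Mertk, Mertk made up 1.05% ± 0.370 in monocytes, 13.7% ± 1.30 in Tim-4-CD4- macrophages, 19.9% ± 1.08 in the Tim-4-CD4+ subset and 21.1% ± 0.998 in the Tim-4+CD4+ subset (SD, n = 3 and 4). Nearly all of the rest was Axl. Of the summed level of Gas6 and Pros1, Gas6 made up 0.296% ± 0.0920 in monocytes, 78.2% ± 2.69 in Tim-4-CD4- macrophages, 83.5% ± 1.78 in the Tim-4-CD4+ subset and 85.8% ± 1.80 in Tim-4+CD4+ macrophages. Monocytes thus held Pros1 and Axl almost alone, and gut macrophages held mostly Gas6 and Axl with a share of Mertk. Of Mfge8 and Edil3 together, Edil3 made up 7.79% ± 2.70 in Tim-4+CD4+ and about 1% in the other subsets, and these shares are descriptions with no test.

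**Figure D5:**
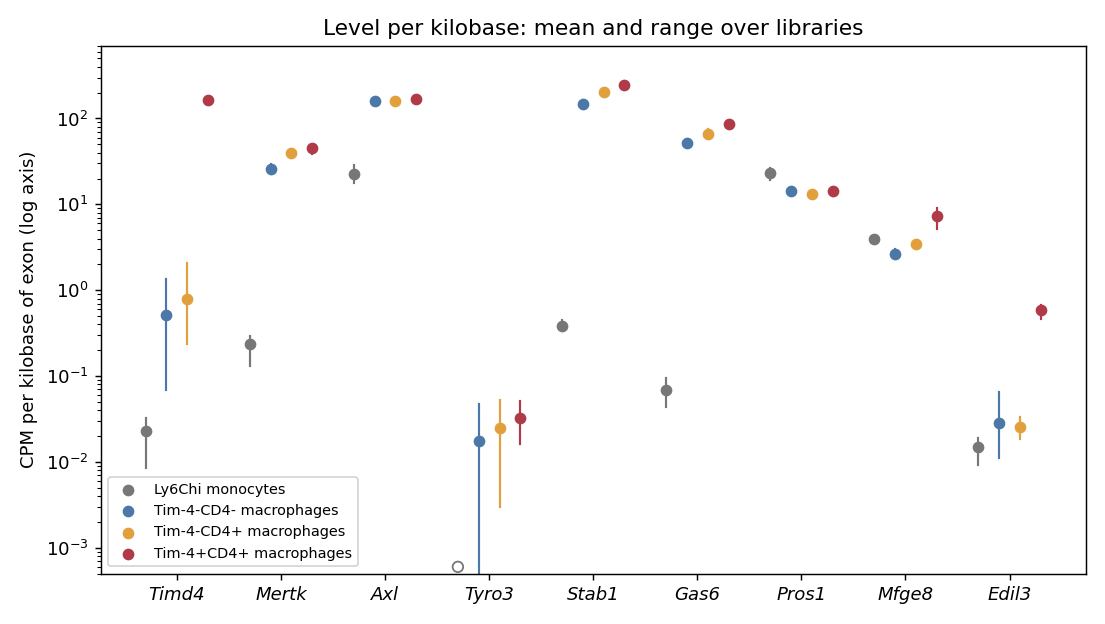
Mean level of each gene per kilobase of exon in the 4 populations, on a log axis, with lines from the lowest to the highest library. The open circle marks 0 reads in all 3 monocyte libraries, and a line that runs off the lower edge reaches a library with 0 reads. Stab1 and Axl lead in macrophages, and Timd4 reaches 164 CPM per kilobase in Tim-4+CD4+ macrophages.

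The wider pathway was read from 11 lists with 74 genes, of which 69 were tested. In Tim-4+CD4+ against Tim-4-CD4- macrophages 19 of the 69 passed, 9 higher and 10 lower, or 27.5%, near the 23.1% of all genes. Against monocytes the number that passed was 56, 61 and 62 of 69 in the 3 subsets, or 81.2%, 88.4% and 89.9%, beside 65.4%, 69.8% and 70.9% of all genes. In the account that follows, each gene's mean CPM ± SD (n = 4) stands first for Tim-4-CD4- and second for Tim-4+CD4+ macrophages, followed by the log2 fold change of that comparison.

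Other phosphatidylserine receptors split evenly. Of 9 tested, 3 were higher and 3 lower, with a median log2 fold change of 0.20. Stab2, the paralog of Stab1 known from sinusoidal endothelium, was 0.745 ± 0.378 and 10.7 ± 4.35 CPM (3.82, adjusted p = 6.96e-06, edgeR). Havcr2, which encodes Tim-3, was 116 ± 14.3 and 178 ± 13.1 (0.62, adjusted p = 0.000450), and the scavenger receptor Scarb1 had means of 121 and 171 (0.50, adjusted p = 0.00164). Cd300lb, an activating receptor of myeloid cells, was 11.6 ± 1.44 and 0.987 ± 0.224 (-3.53, adjusted p = 4.07e-10), Trem2 was 24.9 ± 4.48 and 7.73 ± 2.52 (-1.68, adjusted p = 6.44e-06) and Cd36 was 154 ± 17.2 and 96.9 ± 14.4 (-0.67, adjusted p = 0.000694). Stab2 is at once a member of this list and a marker of endothelium, whose markers are given above.

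The integrin chains that bind Mfge8 and Edil3 did not pass in this comparison. Itgav was 226 ± 29.4 and 262 ± 70.8 CPM (0.21, adjusted p = 0.432, edgeR), Itgb5 687 ± 37.2 and 793 ± 86.3 (0.21, adjusted p = 0.0960) and Itgb3 1.08 ± 0.418 and 1.42 ± 0.239 (0.38, adjusted p = 0.426). Against monocytes, Itgb5 was higher by 2.72 in Tim-4-CD4- macrophages (adjusted p = 6.09e-13, edgeR), while Itgb3 had a log2 fold change of -4.60 (adjusted p = 5.08e-09). Of 7 other bridging or opsonizing proteins tested, 1 passed and was lower: Anxa1, annexin A1, was 21.6 ± 2.86 and 1.86 ± 0.532 CPM (-3.52, adjusted p = 1.10e-09). The complement C1q genes, whose product coats dying cells, were abundant in both, as with C1qa at 3462 ± 127 and 4069 ± 466 CPM (0.23, adjusted p = 0.343).

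For the enzymes of the vitamin K cycle, which make the membrane-binding domain of Gas6 and protein S, 1 of 3 passed. Vkorc1l1 was 15.5 ± 1.47 and 11.1 ± 1.25 CPM (-0.48, adjusted p = 0.00407, edgeR), while the carboxylase Ggcx was 7.12 ± 1.15 and 8.38 ± 1.76 (0.23, adjusted p = 0.339). The proteases that shed Mertk and Axl did not pass: Adam17 was 243 ± 12.3 and 249 ± 9.15 CPM (0.03, adjusted p = 0.806) and Adam10 146 ± 6.53 and 117 ± 23.6 (-0.32, adjusted p = 0.0580). Of 13 engulfment signaling genes, 1 was higher and 2 lower. The kinase Src was 106 ± 21.1 and 152 ± 21.6 CPM (0.51, adjusted p = 0.0477), and the Rac activators Dock1 and Elmo1 had log2 fold changes of -0.43 (adjusted p = 0.0275) and -0.32 (adjusted p = 0.0361).

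Receptors for find-me signals from dying cells numbered 6, with 1 higher and 1 lower. The nucleotide receptor P2ry2 was 3.94 ± 0.220 and 10.7 ± 1.34 CPM (1.44, adjusted p = 5.05e-07, edgeR), and Gpr132, a receptor for lysophospholipids, was 263 ± 33.9 and 168 ± 40.5 (-0.65, adjusted p = 0.00272). Among 5 don't-eat-me genes, Pecam1, which is also an endothelial gene, was 104 ± 1.77 and 305 ± 24.4 (1.56, adjusted p = 4.44e-07) and Siglecg was 3.03 ± 2.48 and 0.588 ± 0.349 (-2.36, adjusted p = 0.00709). Of 7 nuclear receptors and factors, Rxra, the partner of the lipid-sensing receptors, was 83.9 ± 6.24 and 174 ± 14.0 (1.05, adjusted p = 7.49e-07) and Nr1h3, which encodes LXR-alpha, was 36.8 ± 4.63 and 53.7 ± 8.32 (0.55, adjusted p = 0.0134). Of 8 genes for cargo lipids, the cholesterol exporter Abcg1 passed, at 94.5 ± 7.41 and 119 ± 5.32 (0.33, adjusted p = 0.00903). Of 6 scramblases and flippases, Plscr1 passed, at 10.2 ± 1.33 and 4.47 ± 0.422 (-1.19, adjusted p = 1.80e-05).

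In Tim-4-CD4+ against Tim-4-CD4- macrophages 13 of 69 genes passed (18.8%, beside 10.1% of all genes), with 7 higher and 6 lower. The comparison of Tim-4+CD4+ with Tim-4-CD4+ macrophages had 7 (10.1%, beside 3.41% of all genes), with 5 higher and 2 lower. Itgav passed in the first of these, where it was higher by 0.59 (adjusted p = 0.0462, edgeR).

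Genes with the profile most like each member across the 12 macrophage libraries were found by the root mean square (RMS) difference of centered log2 CPM among 11797 genes. Closest to Mertk was Prdm1, which encodes Blimp-1, with an RMS difference of 0.0776 log2 units against a spread of 0.381 in Mertk itself, followed by Abr and Clip2. Closest to Stab1 were Abcc3 (0.0712), Abr and Slc37a3, and closest to Gas6 was Spic (0.102), the factor of red pulp macrophages, followed by Kcng2 and Agpat3. For Mfge8 these were Tmeff1 (0.195), P2ry2 and Hap1. For Timd4 and Edil3 the nearest genes lay further off: the nearest to Timd4 was 2900052N01Rik at 1.33 against a spread of 4.21, then Cd209f and Zfp641, and the nearest to Edil3 was Casc4 at 0.807 against 2.19, then Fcna and Cd209f. These likenesses are descriptions over libraries that share their subset labels.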

How the data were processed

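Paired-end reads came from an mRNA kit that keeps strand. Reads were trimmed by the authors with Trimmomatic (version 0.36 in the submitters' notes), aligned to GRCm38.p4 with STAR, and, where they mapped to 1 place, counted by gene in HTSeq (0.6.1p1) against GENCODE vM11. The strand setting is not given in the sources used here, which bears on Stab1 and Gas6, whose exons overlap Nt5dc2 and Tmem255b on the opposite strand. The deposited counts were raw, with a total of 39388763 to 151510641 per library. The other 15 value columns, counts divided by size factors, were not used.

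Counts were filtered with filterByExpr by population, scaled with TMM, and fitted over 15 libraries with edgeR 4.0.16 in R 4.3.3, with p-values adjusted within each of 6 comparisons. The fit was tested on simulated data. Lengths joined all exons of a gene in GENCODE M21, matched by identifier for 19421 genes. The members and lists were chosen with earlier results of these data known. From each list, up to 3 genes in each direction with the largest change in Tim-4+CD4+ against Tim-4-CD4- macrophages were named, with other members given as values. Genes with a like profile were the nearest 3 with a mean of at least 1 CPM, for members past the threshold between subsets. P-values measure the spread between pools of mice within a population, from sorts that the paper calls independent. The subsets may have been taken from the same pools and sorts, and the main fit held no block for this. Alternatives included DESeq2 1.42.0 and leaving out each library. Figures used Python 3.11.15 and matplotlib 3.10.9. One marker gene is not reported here.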

Additional observations from a re-analysis of the deposited data

How the results depend on the processing

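In Tim-4-CD4+ compared with Tim-4-CD4- macrophages, the number of members past the threshold fell from 3 to 0 where a change of at least 2-fold was also required (under edgeR, 3 had an adjusted p under 0.05 without that demand), and it was 1 to 2 when 1 library was left out, with 1 without Tim-4-CD4- replicate 4 or Tim-4-CD4+ replicate 4. In Tim-4+CD4+ compared with Tim-4-CD4- macrophages the 2-fold demand left 3 of 6, and leave-outs gave 6 each time. The other 4 counts stayed within 1.5 times of their value under all alternatives run. No member reversed its direction with a call on either side. Of 827 recomputed member comparisons, 13 lost a call, 9 gained one, 11 changed sign without a call in either fit, and in 6, all of Timd4, DESeq2 gave no adjusted p. Gas6 in Tim-4+CD4+ against Tim-4-CD4+ macrophages passed under DESeq2 (adjusted p = 0.00552), upper-quartile scaling (0.0363), the filter at a mean of 1 CPM (0.0417) and without Tim-4-CD4+ replicate 3 (0.0415), within a range over all alternatives of 0.00552 to 0.202. Stab1 in that comparison passed under DESeq2 (0.0396), and Mfge8 in Tim-4-CD4+ against Tim-4-CD4- macrophages passed in a fit of only those populations (0.0220). Edil3 in Tim-4-CD4- macrophages against monocytes passed under DESeq2 (0.0398) and without Tim-4-CD4- replicate 3 (0.0219) or 4 (0.0408), within a range over all alternatives of 0.0219 to 0.681. Upper-quartile scaling moved the median of all genes by 0.11 on the log2 scale in Tim-4+CD4+ macrophages against monocytes and turned no member called there. With the longest transcript as length, 19 of 36 levels per kilobase moved by more than 1 SD.

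Replicate numbers differ between titles and descriptions for the Tim-4-CD4+ libraries, and by neither numbering did every same-numbered pair deviate together (correlations -0.12 to 0.13 by titles and -0.089 to 0.16 by descriptions, with 2 and 4 of 12 pairs over 0.1, among them all 3 pairs of number 4 by descriptions). With a replicate block by either numbering, 8, 7 and 9 members passed against monocytes. That block also joined monocyte and macrophage libraries of the same number. The labels give no pairing of blood with gut pools, so the counts against monocytes do not bear on a shared sort. Between subsets, 6 passed in Tim-4+CD4+ against Tim-4-CD4- macrophages and 3 in Tim-4+CD4+ against the Tim-4-CD4+ subset. In Tim-4-CD4+ against Tim-4-CD4-, 2 passed, and Gas6 had adjusted p 0.0666 by titles and 0.0544 by descriptions (edgeR).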
